A study of Mus musculus with 8 samples.

Results

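The genes described here encode the nuclear-encoded subunits of the mitochondrial respiratory chain. A gene was taken where a probe set carried its symbol alone and that symbol started with Nduf followed by a, b, c, s or v, with Uqcr, or with Cox followed by a digit from 4 to 8, or where it was Cycs or Sdha, Sdhb, Sdhc or Sdhd. Where a gene had several such probe sets, that with the greatest mean over the 8 arrays stood for it. This gave 74 of the 18193 genes with a probe set of their own, and 70 of the 12420 genes that passed the filter on low signal (above the median of the array on at least 2 of 8 arrays). The name patterns also take in 8 complex I assembly factors (Ndufaf symbols), which are not subunits of the finished enzyme, and Cox7a2l, which joins complexes III and IV into supercomplexes. Ndufa4 is described with complex IV, of which it is a subunit, whatever its name.

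The study profiled gene expression in dorsal skin of Balb/c mice in a model of atopic dermatitis, with 1 Affymetrix array per sample. In the DNCB group (DNCB_HY209(-) in the labels, n = 3) the contact sensitizer 1-chloro-2,4-dinitrobenzene (DNCB) had been put on the back skin over 15 days, and vehicle was given during the final 7 days. The DNCB+HY209 group (DNCB_HY209(+) in the labels, n = 3) had the same 15 days of DNCB and, during the final 7 days, a 5% HY209-PEG gel. The sham group (n = 2) is given by its titles and source names as skin with neither DNCB nor HY209, although the protocol fields of all 8 arrays, sham included, carry the same DNCB text, and that doubt touches each comparison against sham. The labels name no genotype other than the strain, no sex and no age, and nothing in them states that each array had its own animal. The p-values therefore speak to the variation among these samples, which may be technical.

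The respiratory chain sits in the inner mitochondrial membrane. Complex I takes electrons from NADH and complex II takes them from succinate, ubiquinone carries them to complex III, and cytochrome c carries them on to complex IV, which reduces oxygen to water. Complexes I, III and IV pump protons as they work, and the proton gradient drives ATP synthase. Most subunits are encoded in the nucleus and imported, while a few core subunits of complexes I, III and IV are encoded in mitochondrial DNA. Several subunits of complex IV exist in a widely expressed form and in a form found mainly in heart and skeletal muscle. Mouse dorsal skin lies on the panniculus carnosus, a thin sheet of skeletal muscle.

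The results below turn on how the muscle forms of complex IV and their widely expressed partners differed, so the upstream sequences of the muscle forms Cox7a1 and Cox8b and of the widely expressed forms Cox7a2, Cox8a and Cox6a1 are shown, and none is shown for Cox6a2. They are the 250 bases before a RefSeq start (GRCm38.p6), at chr7:30183921-30184170 (+ strand) for Cox7a1, chr7:140900447-140900696 (- strand) for Cox8b, chr9:79759854-79760103 (- strand) for Cox7a2, chr19:7217617-7217866 (- strand) for Cox8a and chr5:115348959-115349208 (- strand) for Cox6a1. The start used for Cox7a2 lies inside the RefSeq span of that gene (chr9:79755241-79771422), so the bases before its outermost start are not shown. Capitals mark matches, on either strand, to CAGCTG (an E-box of the kind bound by myogenic factors), the NRF1 motif (GCGCA, any base, then GCGC, bound by nuclear respiratory factor NRF1) and CCGGAAG (an ETS site, the kind bound by GABP).
Cox7a1: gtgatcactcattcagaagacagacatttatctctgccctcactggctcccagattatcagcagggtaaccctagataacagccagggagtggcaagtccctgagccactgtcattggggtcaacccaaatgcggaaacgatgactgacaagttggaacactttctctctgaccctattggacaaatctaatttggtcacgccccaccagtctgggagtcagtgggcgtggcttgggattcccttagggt
Cox8b: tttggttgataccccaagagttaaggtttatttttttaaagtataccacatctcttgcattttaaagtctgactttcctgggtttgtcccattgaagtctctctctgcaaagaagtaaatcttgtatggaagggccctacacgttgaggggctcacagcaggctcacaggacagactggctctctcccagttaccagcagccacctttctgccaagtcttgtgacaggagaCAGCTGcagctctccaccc
Cox7a2: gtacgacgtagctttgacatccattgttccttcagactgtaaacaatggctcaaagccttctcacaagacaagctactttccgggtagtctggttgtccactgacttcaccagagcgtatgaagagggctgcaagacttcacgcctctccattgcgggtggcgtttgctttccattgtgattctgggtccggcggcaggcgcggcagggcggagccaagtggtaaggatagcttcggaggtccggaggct
Cox8a: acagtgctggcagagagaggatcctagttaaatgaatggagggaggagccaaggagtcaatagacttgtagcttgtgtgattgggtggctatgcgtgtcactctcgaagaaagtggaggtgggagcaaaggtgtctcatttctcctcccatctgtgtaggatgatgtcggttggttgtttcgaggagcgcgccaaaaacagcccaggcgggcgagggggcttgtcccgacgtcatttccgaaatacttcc
Cox6a1: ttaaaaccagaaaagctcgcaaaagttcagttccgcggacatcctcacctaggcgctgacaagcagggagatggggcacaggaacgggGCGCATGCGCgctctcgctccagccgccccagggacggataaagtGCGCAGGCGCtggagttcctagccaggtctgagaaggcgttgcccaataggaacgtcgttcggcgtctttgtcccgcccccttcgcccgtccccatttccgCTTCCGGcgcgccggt
The Cox6a1 stretch held 2 matches to the NRF1 motif and 1 to CCGGAAG, the Cox8b stretch held 1 match to CAGCTG, and none of these 3 motifs was found in the stretches of Cox7a1, Cox7a2 and Cox8a. Motifs were counted in the same way over windows of the 250 bases before each RefSeq start. Of the 74 genes 60 could be matched and had 62 windows. The NRF1 motif lay in 9 of these windows (14.5%) against 3.74% of all 32851 windows, and CCGGAAG lay in 10 (16.1%) against 6.91% of all windows. CAGCTG lay in 5 (8.06%, against 13.0% of all windows) and TATAAA, the TATA box, in 6 (9.68%, against 12.4%). The median GC content was 57.8% in the windows of the members and 52.4% in all windows. These matches describe letters and are not evidence of binding.

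The arrays differed before any gene was compared. Averaged over 7 probe sets for bacterial spike-in RNA, the log2 signal was 10.99 and 11.62 on the sham arrays, 10.71, 9.25 and 10.83 on the DNCB arrays and 10.89, 9.98 and 9.87 on the DNCB+HY209 arrays, so DNCB array 2 and DNCB+HY209 arrays 2 and 3 were the lowest. The ratio of 3' to 5' signal of Gapdh, which grows as RNA degrades, was 7.35 on DNCB array 3 and between 2.11 and 4.46 on the other arrays. The same ratio of actin was 8.41 on DNCB array 3 and 8.13 on sham array 1, and between 3.69 and 6.43 on the others. The skin label was borne out by keratin genes, since Krt5 and Krt14 of the basal epidermis read at least 11.57 on every array. Skeletal muscle markers were present too: the mean log2 signal of 24 muscle genes was 8.15 and 9.78 in sham, 10.74, 10.17 and 8.78 in DNCB and 10.11, 10.05 and 10.14 in DNCB+HY209. Sham array 1 and DNCB array 3 had the least muscle signal. The muscle gene Myh7 did not pass the filter, and Ucp1, which defines brown adipocytes, did not pass it on any array (2.70 to 3.49).

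No respiratory chain gene passed the test in any comparison. Against sham, 66 of the 70 members read higher in DNCB on average (63.2% of all genes did), with a median difference of 0.37 on the log2 scale (1.29-fold), and the median of all 12420 genes was 0.15. Against sham, 68 of 70 read higher in DNCB+HY209 (65.7% of all genes), with a median of 0.47 (1.38-fold), beside 0.20 for all genes. Between DNCB+HY209 and DNCB the median was 0.11 (1.08-fold), beside 0.03 for all genes. The comparisons share groups (sham in both comparisons against it, DNCB in 2 of the 3), so their values are not independent of each other. The pooled SD between replicate arrays of the mean over all members was 0.19.

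In limma with Benjamini-Hochberg adjustment over all 12420 genes, 0 of 70 members were called for DNCB against sham, where 1.83% of all genes were called (227 genes, 170 or 1.37% higher and 57 or 0.459% lower). At an unadjusted p under 0.05 the count was 9 of 70, or 12.9%, beside 16.8% of all genes. For DNCB+HY209 against sham 0 members were called and 0.403% of all genes (50), and the count at an unadjusted p under 0.05 was 25 of 70 (35.7%), beside 19.3% of all genes. For DNCB+HY209 against DNCB 0 members and 0% of all genes were called, and at an unadjusted p under 0.05 the counts were 0 members and 161 genes (1.3%). Cox7c was among the 9 and among the 25 members counted at an unadjusted p under 0.05. Leaving out Cox7c, whose sham signals lay below the array median so that it passed the filter only through the other groups, the lowest adjusted p of a member was 0.205 (Ndufv1) in DNCB against sham, 0.128 (Cox5b) in DNCB+HY209 against sham and 0.9998 in DNCB+HY209 against DNCB. The 95% confidence interval of the difference lay inside a 2-fold change either way for 41 of 70 members in DNCB against sham, for 64 in DNCB+HY209 against DNCB and for 23 in DNCB+HY209 against sham.

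Counting arrays without overlap gave a different picture from the test. Every DNCB array read above both sham arrays for 26 of 70 members (37.1%), and 23.3% of all genes did the same. Every DNCB+HY209 array read above both sham arrays for 47 of 70 members (67.1%), beside 29.1% of all genes. Cox7c was among the 26 and the 47, and it passed the filter only through the groups where it was high. The later counts over the 70 members of arrays above sham include it too. Only Cox8c read lower than sham without overlap, in both comparisons, where 11.2% and 12.2% of all genes did.

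The difference from sham was uneven between arrays of a group. DNCB array 1 read above both sham arrays for 58 of 70 members, DNCB array 2 for 65 and DNCB array 3 for 31. DNCB+HY209 array 1 did so for 48 members and arrays 2 and 3 for 67 each. Over all genes the shares were 40.8%, 56.6% and 38.8% for the DNCB arrays and 41%, 49.1% and 57.2% for the DNCB+HY209 arrays. The highest signal of a member fell on DNCB array 2 for 19 members (27.1%, beside 30% of all genes). It fell on DNCB+HY209 array 2 for 20 (28.6%, beside 4.94%) and on DNCB+HY209 array 3 for 18 (25.7%, beside 20.3%). These are the 3 arrays with the lowest spike-in signal. The lowest signal fell on sham array 2, the array with the highest spike-in signal, for 40 of 70 members (57.1%, beside 34.4% of all genes). Without those 3 arrays of lowest spike-in signal, the member median was 0.30 for DNCB against sham. In that comparison 64 of 70 were above 0 (59.5% of all genes) and 28 of 70 higher without overlap (25.7% of all genes). The member median was 0.31 for DNCB+HY209 against sham, which then rested on 1 DNCB+HY209 array. When the spike-in level entered the fit as a covariate, the member medians were 0.12 and 0.24 (all genes 0.018 and 0.041), and with quantile normalization, which brought the median of all genes to -0.002 and 0.016, they were 0.20 and 0.28.

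**Figure D1:**
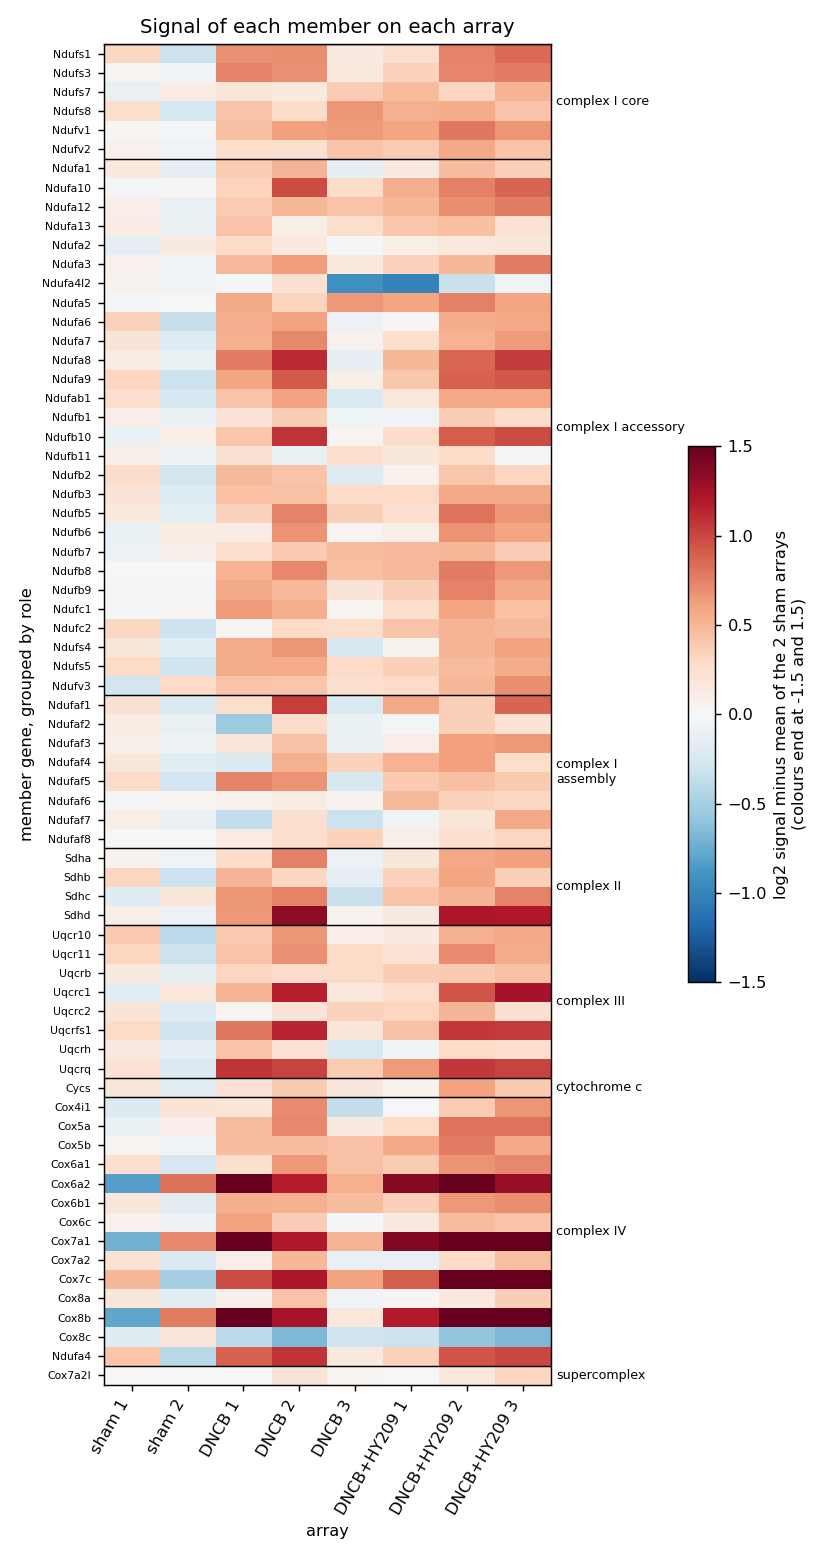
Log2 signal of each of the 70 members (rows, grouped by role) on each of the 8 arrays (columns), minus the mean of the 2 sham arrays for that gene, with red above and blue below it and colours that end at 1.5. DNCB array 2 and DNCB+HY209 arrays 2 and 3 are the reddest columns, DNCB array 3 is pale, and the rows of Cox6a2, Cox7a1 and Cox8b differ between the 2 sham arrays.

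The map of signals by gene and array shows the same unevenness. DNCB array 3 is above both sham arrays for 31 members, against 58 and 65 for the other DNCB arrays.

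The 6 measured core subunits of complex I, which carry the flavin and iron-sulfur clusters that pass electrons, had a median difference of 0.48 in DNCB against sham. All 6 were above 0, beside 63.2% of all genes, and 5 of 6 were higher without overlap, beside 23.3%. Ndufv1, the subunit that binds NADH, read 9.33 and 9.28 on the sham arrays, 9.76, 9.92 and 9.94 on the DNCB arrays and 9.90, 10.10 and 9.96 on the DNCB+HY209 arrays. The sham arrays lay together and every DNCB and DNCB+HY209 array lay above them. The difference was 0.57 (SE 0.19, adjusted p = 0.205) for DNCB and 0.68 (adjusted p = 0.155) for DNCB+HY209, in each case higher in 3 of 3 arrays. DNCB array 3, which had the highest Gapdh ratio and little muscle signal, was the highest of the DNCB arrays in this probe set. In another Ndufv1 probe set it was the lowest of them, at 7.96 beside 8.23 and 8.73.

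Ndufs8, an iron-sulfur subunit, read 10.14 and 9.62 on the sham arrays, 10.31, 10.15 and 10.54 on the DNCB arrays and 10.41, 10.44 and 10.32 on the DNCB+HY209 arrays. Sham array 2 was the lowest, and DNCB array 3 was the highest of all in this probe set. In other Ndufs8 probe sets DNCB array 3 was the lowest DNCB array, for example at 9.10 beside 9.30 and 9.39. The difference from sham was 0.45 (SE 0.23, adjusted p = 0.339) in DNCB and 0.51 (adjusted p = 0.264) in DNCB+HY209. Ndufs7, which holds the last iron-sulfur cluster before ubiquinone, had the smallest difference of the core subunits in DNCB, 0.24. It read 9.55 and 9.77 in sham, 9.85, 9.81 and 10.05 in DNCB and 10.13, 9.99 and 10.17 in DNCB+HY209, without overlap with sham in either group, and its mean was highest in DNCB+HY209. The other Ndufs7 probe set gave 0.67 in DNCB and 0.88 in DNCB+HY209 against sham. The rank of Ndufs7 among the core subunits thus depends on the probe set.

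The accessory subunits of complex I surround the core and stabilise it. Of 29 genes 28 passed the filter, their median difference was 0.38 in DNCB against sham and 0.47 in DNCB+HY209 against sham, and 10 and 17 of them were higher without overlap, beside 23.3% and 29.1% of all genes. Ndufa8 had the largest difference, 0.59 (SE 0.36, adjusted p = 0.412) in DNCB and 0.80 (adjusted p = 0.265) in DNCB+HY209. It read 7.50 and 7.28 on the sham arrays, 8.15, 8.51 and 7.27 on the DNCB arrays and 7.89, 8.25 and 8.44 on the DNCB+HY209 arrays. DNCB array 3 read below both sham arrays for this gene. Its place was the opposite in the probe sets that stood for Ndufv1 and Ndufs8, though not in all their probe sets.

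Ndufb11, an accessory subunit of the membrane arm, differed from sham by 0.12 (SE 0.20) in DNCB and by 0.15 in DNCB+HY209. Its signals lay between 10.63 and 11.02 on the 8 arrays, and the groups overlapped. Ndufb8, chosen after its values were seen because its adjusted p in DNCB against sham was the lowest of the accessory subunits (0.227), read 9.08 and 9.07 in sham, 9.60, 9.79 and 9.52 in DNCB and 9.55, 9.83 and 9.72 in DNCB+HY209. The sham arrays lay together and every other array lay above them. Ndufb4 did not pass the filter through its own probe set (2.54 to 2.98), while 2 probe sets that it shares with the copies Ndufb4b and Ndufb4c read 7.74 to 8.89. Ndufa11 and Ndufs6 were represented only by such shared probe sets and are not among the members.

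Ndufa4l2, grouped here with the accessory subunits by its name only, is a paralogue of Ndufa4 known as a gene induced by hypoxia. It was the gene of that group below 0 in both comparisons with sham. It read 6.65 and 6.54 on the sham arrays, 6.56, 6.83 and 5.67 on the DNCB arrays and 5.58, 6.25 and 6.54 on the DNCB+HY209 arrays. DNCB array 3 and DNCB+HY209 array 1 were the lowest, DNCB array 2 was the highest, and both groups overlapped with sham. The differences were -0.24 (SE 0.38, adjusted p = 0.746) in DNCB, -0.47 (adjusted p = 0.481) in DNCB+HY209 against sham and -0.23 between the treated groups, with a confidence interval that spans 0.

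The 8 assembly factors of complex I help to build the enzyme and leave it. They had the smallest median of the complex I groups in DNCB against sham, 0.20. In DNCB+HY209 against DNCB they had the largest, 0.27, with 7 of 8 above 0, beside 57% of all genes. Those of Ndufaf5, Ndufaf6 and Ndufaf7 read near the array median (4.08 to 4.22), so their differences are less certain in size. Ndufaf7, a methyltransferase, read 5.06 and 4.85 in sham, 4.58, 5.19 and 4.64 in DNCB and 4.91, 5.13 and 5.53 in DNCB+HY209. The groups overlapped, and the difference was -0.15 (SE 0.26) in DNCB against sham and 0.38 in DNCB+HY209 against DNCB, with a confidence interval from -0.14 to 0.91. Ndufaf5, which hydroxylates Ndufs7, had the largest difference from sham in DNCB, 0.39 (SE 0.31, adjusted p = 0.508), and read 5.04 and 4.47 in sham, 5.50, 5.43 and 4.52 in DNCB and 5.15, 5.21 and 5.15 in DNCB+HY209. DNCB arrays 1 and 2 were the highest of all and DNCB array 3 lay between the sham arrays. Ndufaf8 differed by 0.24 in DNCB and by 0.22 in DNCB+HY209 from sham, and by -0.02 between the treated groups.

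Complex II, succinate dehydrogenase, is also an enzyme of the tricarboxylic acid (TCA) cycle, and all its subunits are encoded in the nucleus. Its 4 genes had a median difference of 0.34 in DNCB and 0.51 in DNCB+HY209 against sham. None of the 4 separated DNCB from sham without overlap, and all 4 separated DNCB+HY209 from sham, beside 23.3% and 29.1% of all genes. Sdhd, a membrane anchor, had the largest difference, 0.68 (SE 0.43, adjusted p = 0.424) in DNCB and 0.85 (adjusted p = 0.302) in DNCB+HY209. It read 7.51 and 7.33 on the sham arrays, 8.07, 8.76 and 7.47 on the DNCB arrays and 7.56, 8.64 and 8.62 on the DNCB+HY209 arrays. The high values were DNCB array 2 and DNCB+HY209 arrays 2 and 3, and DNCB array 3 and DNCB+HY209 array 1 lay near sham array 1. The DNCB difference was 0.350 without DNCB array 2 and 0.995 without DNCB array 3. The other Sdhd probe set past the filter gave 0.08 in DNCB, and there DNCB+HY209 array 1 (4.58) lay below sham array 2 (4.845). The rank of Sdhd and its separation of DNCB+HY209 from sham thus depend on the probe set.

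Sdha, the flavoprotein that oxidises succinate, read 7.80 and 7.70 in sham, 8.03, 8.51 and 7.66 in DNCB and 7.92, 8.33 and 8.36 in DNCB+HY209, and had the same 3 high arrays. Sdhb, the iron-sulfur subunit, read 8.71 and 8.07 in sham, 8.90, 8.71 and 8.26 in DNCB and 8.74, 8.99 and 8.75 in DNCB+HY209. Sham array 2 was low for this gene and sham array 1 reached the level of the DNCB arrays. Sdhc, the other membrane anchor, read 7.16 and 7.53 in sham, 8.01, 8.10 and 7.02 in DNCB and 7.78, 7.86 and 8.10 in DNCB+HY209, with DNCB array 3 below both sham arrays. The DNCB differences were 0.31 for Sdha, 0.23 for Sdhb and 0.36 for Sdhc, with SE from 0.28 to 0.34, which overlaps 0 within the confidence interval for all 3 genes.

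Complex III passes electrons from ubiquinol to cytochrome c. Its 8 genes had a median difference of 0.43 in DNCB and 0.45 in DNCB+HY209 against sham, with all 8 above 0 (63.2% and 65.7% of all genes), and 3 and 5 of 8 higher without overlap (23.3% and 29.1% of all genes). Uqcrq, a small subunit next to cytochrome b, had the largest difference, 0.82 (SE 0.29, adjusted p = 0.213) in DNCB and 0.91 (adjusted p = 0.181) in DNCB+HY209. It read 8.79 and 8.36 on the sham arrays, 9.65, 9.58 and 8.96 on the DNCB arrays and 9.21, 9.63 and 9.59 on the DNCB+HY209 arrays. Both groups lay above sham, with DNCB array 3 the closest to it. Uqcrq had 3 probe sets above the filter, and their differences in DNCB against sham ran from -0.02 to 0.82, so the size depends on the probe set.

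Uqcrb, a small subunit of complex III, read 11.85 and 11.55 in sham, 12.02, 11.99 and 11.98 in DNCB and 12.07, 12.10 and 12.14 in DNCB+HY209. In this probe set the groups followed each other without overlap. The steps were small, 0.30 (SE 0.16, adjusted p = 0.374) from sham to DNCB and 0.10 from DNCB to DNCB+HY209. In the other Uqcrb probe set all groups overlapped, and the step from DNCB to DNCB+HY209 was 0.01. Uqcrh, the hinge subunit that holds cytochrome c1, had the smallest difference, 0.14 (SE 0.25), and its groups overlapped. Uqcrfs1, the Rieske iron-sulfur protein, chosen after its values were seen, read 8.11 and 7.52 in sham, 8.61, 8.95 and 7.99 in DNCB and 8.26, 8.87 and 8.87 in DNCB+HY209. Its difference was 0.70 (SE 0.35, adjusted p = 0.334) in DNCB and 0.85 (adjusted p = 0.237) in DNCB+HY209, and DNCB array 3 read below sham array 1.

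Cycs, the somatic cytochrome c that also triggers apoptosis when it leaves the mitochondrion, read 10.33 and 9.99 on the sham arrays, 10.38, 10.55 and 10.34 on the DNCB arrays and 10.22, 10.77 and 10.55 on the DNCB+HY209 arrays. DNCB lay just above sham without overlap, and DNCB+HY209 array 1 lay between the sham arrays. The difference was 0.26 (SE 0.23, adjusted p = 0.549) in DNCB and 0.35 (adjusted p = 0.394) in DNCB+HY209. In another Cycs probe set DNCB array 3 read 9.02, below sham array 1 at 9.13. The separation of DNCB from sham thus depends on the probe set. Cox7a2l, the supercomplex factor, differed from sham by 0.07 (SE 0.21) in DNCB and by 0.16 in DNCB+HY209, below the medians of all genes.

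**Figure D2:**
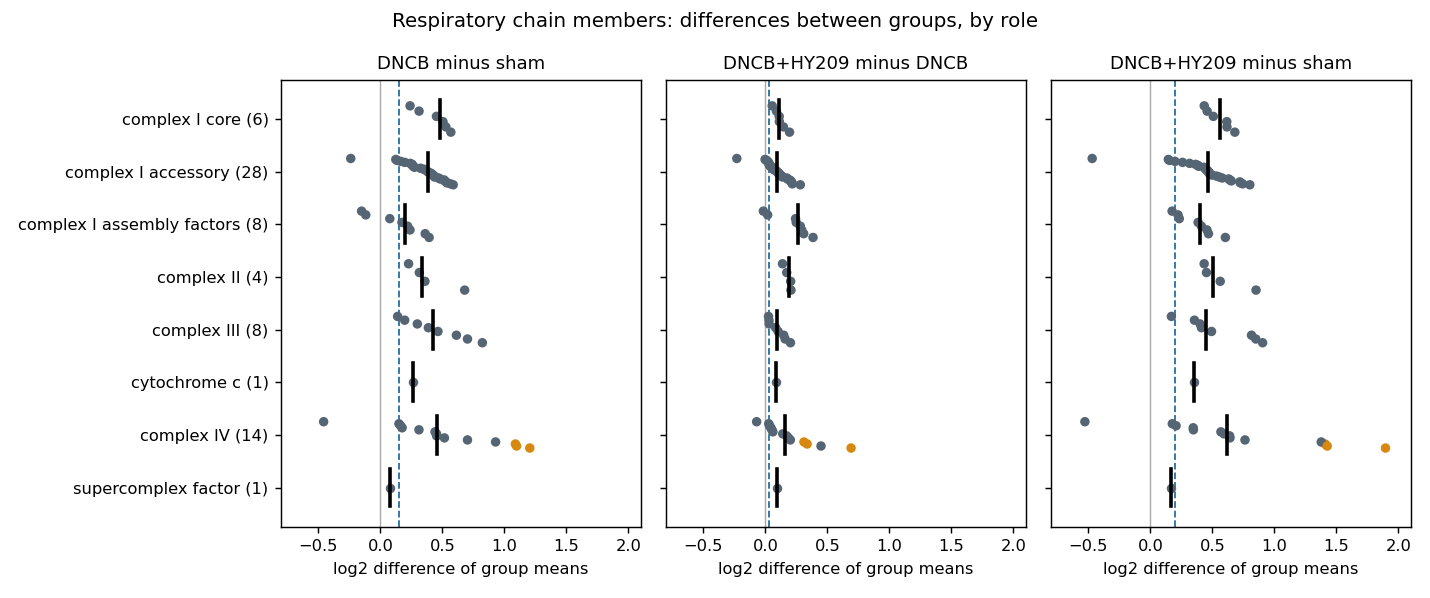
Log2 difference of group means (horizontal axis) for each member past the filter (points), by role, in the 3 comparisons (panels), where black bars are role medians, the dashed line is the median of all genes tested, and orange points are Cox6a2, Cox7a1 and Cox8b. The role medians against sham run from 0.07 to 0.48 for DNCB and from 0.16 to 0.62 for DNCB+HY209, and the orange points lie at 1.09 to 1.21 and at 1.41 to 1.90.

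Complex IV, cytochrome c oxidase, had 14 of 17 genes past the filter, with differences from -0.46 to 1.21 in DNCB against sham, as the plot of differences by role shows. The median difference was 0.45 in DNCB and 0.62 in DNCB+HY209 against sham. Without the muscle forms Cox6a2, Cox7a1 and Cox8b the medians of the remaining 11 genes were 0.44 and 0.57. Cox5b, which binds zinc, read 11.39 and 11.31 on the sham arrays, 11.81, 11.81 and 11.79 on the DNCB arrays and 11.93, 12.12 and 11.92 on the DNCB+HY209 arrays. In this probe set the DNCB arrays lay close together, all above sham, and all DNCB+HY209 arrays lay above all DNCB arrays. In another Cox5b probe set DNCB array 2 read 10.49 and DNCB+HY209 array 1 read 10.06, so that order depends on the probe set. The difference was 0.45 (SE 0.16, adjusted p = 0.224) in DNCB and 0.64 (adjusted p = 0.128) in DNCB+HY209.

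Cox6b1, a subunit on the side of the intermembrane space, read 11.10 and 10.76 in sham, 11.48, 11.47 and 11.39 in DNCB and 11.29, 11.58 and 11.62 in DNCB+HY209. In this probe set its DNCB and DNCB+HY209 arrays did not overlap with sham. The difference was 0.52 (SE 0.20, adjusted p = 0.242) in DNCB and 0.57 (adjusted p = 0.202) in DNCB+HY209. In the other Cox6b1 probe set DNCB+HY209 array 1 read 9.938, below sham array 1 at 9.947. Cox4i1, the widely expressed form of the largest nuclear subunit, differed by 0.18 (SE 0.33) in DNCB and by 0.35 in DNCB+HY209, and read 9.90 and 10.31 in sham, 10.28, 10.81 and 9.75 in DNCB and 10.11, 10.48 and 10.76 in DNCB+HY209. Its groups overlapped, with DNCB array 3 the lowest of all. Ndufa4 differed by 0.70 (SE 0.37, adjusted p = 0.356) in DNCB and by 0.76 in DNCB+HY209, and sham array 1 overlapped both groups at 9.04. Leaving out an array in turn gave 0.286 to 1.120 in DNCB and 0.346 to 1.180 in DNCB+HY209, with the lowest values without sham array 2 and the highest without sham array 1.

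Cox7c had the largest difference outside the muscle forms and was chosen after its values were seen. It read 4.05 and 3.06 in sham, 4.53, 4.76 and 4.16 in DNCB and 4.47, 5.13 and 5.20 in DNCB+HY209. The sham arrays lay below the array median and apart from each other, so a fold change against sham is approximate. Since it passed the filter only through the groups where it was high, its differences of 0.93 in DNCB and 1.38 in DNCB+HY209 are given without a test. Cox8c, a form known mainly from testis, went the other way, at -0.46 (SE 0.23, adjusted p = 0.335) and -0.53 (adjusted p = 0.253). It read 6.72 and 7.08 in sham, 6.50, 6.22 and 6.59 in DNCB and 6.57, 6.30 and 6.23 in DNCB+HY209. Its second probe set gave -0.12 and 0.13, so the sign in DNCB+HY209 against sham depends on the probe set. Of the other tissue-restricted forms, Cox4i2 (lung), Cox6b2 and Cox7b2 (both mainly testis) did not pass the filter, with signals of 2.20 to 4.53.

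The muscle forms Cox6a2, Cox7a1 and Cox8b had the largest differences from sham of the 70 members when both sham arrays were used, and that rank rested on sham array 1. Without it, the DNCB differences of Cox6a2, Cox7a1 and Cox8b were 0.272, 0.491 and 0.315, below that of Cox7c (1.424), and the DNCB+HY209 differences were 0.583, 1.182 and 0.652, beside 1.873 for Cox7c. Without sham array 2 they were 1.925, 1.920 and 1.864 in DNCB and 2.236, 2.611 and 2.201 in DNCB+HY209. Cox7a1 read 5.16 and 6.59 on the sham arrays, 7.77, 7.08 and 6.39 on the DNCB arrays and 7.27, 8.10 and 7.95 on the DNCB+HY209 arrays. Sham array 1 was the lowest of all and DNCB array 3 lay below sham array 2. The difference was 1.21 (SE 0.51, adjusted p = 0.284) in DNCB, 1.90 (adjusted p = 0.137) in DNCB+HY209 against sham, and 0.69 between the treated groups with a confidence interval from -0.33 to 1.72.

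Cox6a2 read 6.96 and 8.62 in sham, 9.37, 8.97 and 8.33 in DNCB and 9.17, 9.34 and 9.10 in DNCB+HY209, and Cox8b read 6.77 and 8.32 in sham, 9.41, 8.78 and 7.71 in DNCB and 8.74, 9.10 and 9.07 in DNCB+HY209. In both genes, by these probe sets, sham array 1 was far below sham array 2, DNCB array 3 lay below sham array 2, and all DNCB+HY209 arrays lay above both sham arrays. The second Cox6a2 probe set read 6.09 and 7.25 in sham and 8.66, 8.26 and 8.10 in DNCB. There every DNCB array lay above both sham arrays, and the difference in DNCB was 1.67. For Cox6a2 the difference was 1.10 (SE 0.47, adjusted p = 0.286) in DNCB and 1.41 (adjusted p = 0.196) in DNCB+HY209. For Cox8b it was 1.09 (SE 0.54, adjusted p = 0.334) and 1.43 (adjusted p = 0.219).

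The widely expressed partners moved over a smaller range. Cox6a1 read 11.62 and 11.12 in sham, 11.63, 12.02 and 11.81 in DNCB and 11.75, 12.04 and 12.09 in DNCB+HY209, Cox7a2 read 10.57 and 10.13 in sham, 10.45, 10.85 and 10.24 in DNCB and 10.24, 10.64 and 10.80 in DNCB+HY209, and Cox8a read 8.86 and 8.52 in sham, 8.77, 9.12 and 8.63 in DNCB and 8.71, 8.84 and 9.06 in DNCB+HY209. None of them had the gap between the sham arrays in the direction of the muscle forms, and sham array 1 was the higher sham array for all 3. Their DNCB differences were 0.45 (SE 0.22), 0.16 (SE 0.27) and 0.15 (SE 0.24).

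**Figure D3:**
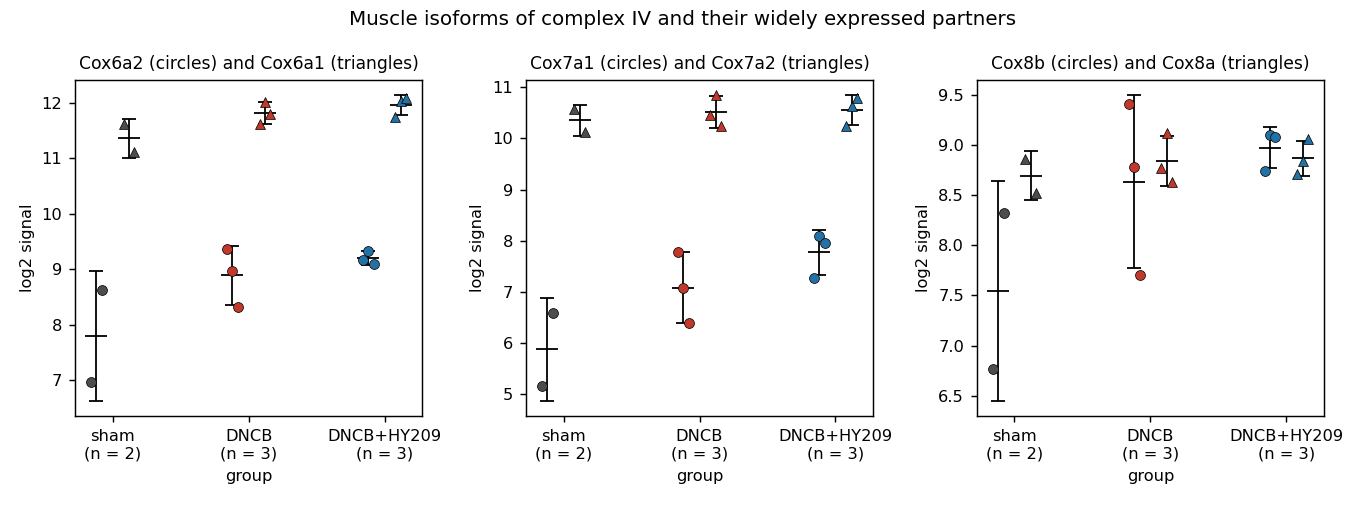
Log2 signal (vertical axis) of each muscle form of complex IV (circles) and its widely expressed partner (triangles) in the 3 groups. Points are arrays, and bars are the mean and SD (n = 2, 3 and 3), and the circles of the sham arrays lie far apart while those of the DNCB+HY209 arrays lie together.

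The change in log2 ratio of muscle form to partner was tested for each pair in each comparison with a two-sided exact permutation test, 9 tests in all. For Cox7a1 over Cox7a2 the ratio differed by 1.04 between DNCB and sham (exact p = 0.6), by 0.65 between DNCB+HY209 and DNCB (exact p = 0.3) and by 1.69 between DNCB+HY209 and sham (exact p = 0.2). For Cox6a2 over Cox6a1 the changes were 0.65, 0.17 and 0.82, and for Cox8b over Cox8a they were 0.94, 0.31 and 1.25. The adjusted p-values ran from 0.771 to 0.8. Two-sided p cannot go below 0.2 with 2 against 3 arrays or below 0.1 with 3 against 3, so the design could not reach 0.05.

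**Figure D4:**
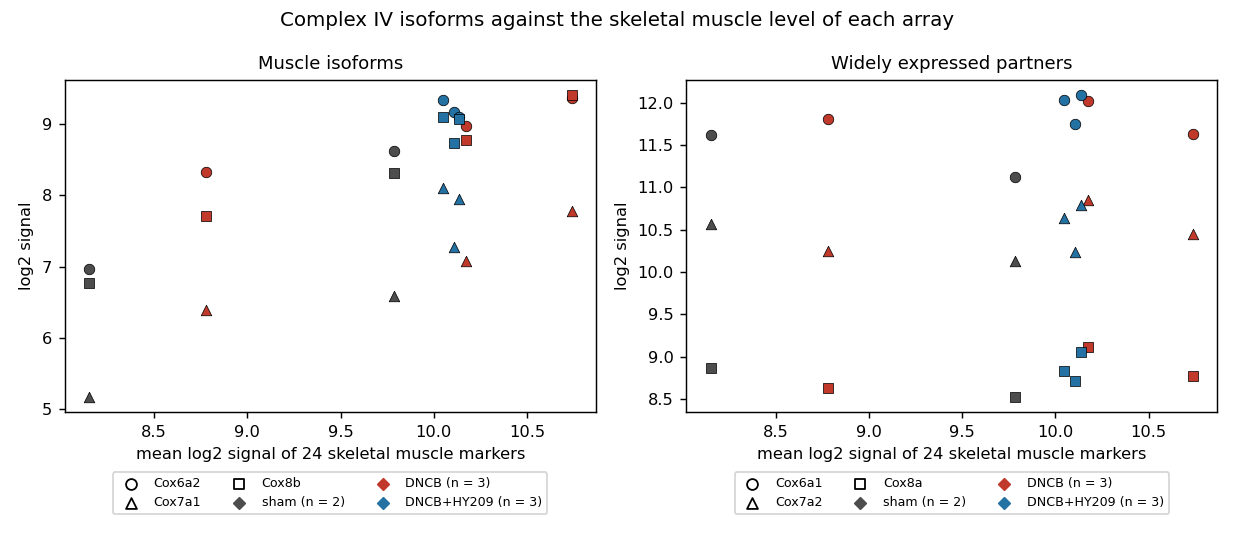
Log2 signal of the muscle forms (left) and of their partners (right) on each array (vertical axis) against the mean log2 signal of 24 skeletal muscle markers on that array (horizontal axis). The muscle forms lie lowest on sham array 1 and DNCB array 3, whose muscle signal is 8.15 and 8.78, and the partners show no such order.

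The muscle forms were compared with the muscle markers of the same array. Over the 8 arrays Pearson's r with the mean of the 24 muscle genes was 0.975 for Cox8b (exact permutation p = 0.000893, adjusted over 6 relations 0.00536), 0.936 for Cox6a2 (exact p = 0.00184, adjusted 0.00551) and 0.882 for Cox7a1 (exact p = 0.00769, adjusted 0.0154). Spearman's rho was 0.833, 0.762 and 0.643, with exact adjusted p of 0.0923, 0.11 and 0.192, so by ranks none passed 0.05. After group means were removed r was 0.98, 0.935 and 0.888. Without sham array 1 and DNCB array 3, which lie farthest from the median, r was 0.838, 0.706 and 0.473, so the relation of Cox7a1 rests largely on those arrays. For the partners Cox6a1, Cox7a2 and Cox8a r was 0.185, 0.176 and 0.198, each with exact adjusted p of 0.666.

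With the muscle level as a covariate in the fit, the differences from sham were 0.44 for Cox6a2, 0.51 for Cox7a1 and 0.26 for Cox8b in DNCB, and 0.61, 1.055 and 0.42 in DNCB+HY209, all smaller than without it. The median over all members moved less, from 0.37 to 0.31 and from 0.47 to 0.44. In bulk skin, fewer cells of a type and less RNA per cell cannot be told apart. Of the muscle genes, Myh2, a fast myosin, was called in both comparisons against sham, at 4.45 and 4.66 log2 units (adjusted p = 0.00639 and 0.00682). The fast-fibre genes Pvalb and Myh4 differed from sham by -1.15 and -0.94 in DNCB and were not called.

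The DNCB+HY209 against DNCB comparison had the smallest differences. The difference was above 0 for 66 of 70 members, beside 57% of all genes, and 5 members were higher without overlap (7.14%), beside 2.83% of all genes, while none was lower (2.17% of all genes). The 5 were Ndufa12, Ndufc2, Ndufaf6, Uqcrb and Cox5b, named after their values were seen, with differences of 0.22, 0.28, 0.31, 0.10 and 0.19 and an adjusted p of 0.9998 each. Other probe sets of Ndufa12, Ndufc2, Uqcrb and Cox5b overlapped between these groups. The count of 66 depended on single arrays. Without DNCB array 3, 36 of 70 members were above 0 (49.9% of all genes), the median was 0.01, 10 members were higher without overlap (8.81% of all genes) and 3 were lower (8.29%). Without DNCB+HY209 array 2 the count was 50 of 70 (56.8% of all genes) with a median of 0.06 (all genes 0.035). Without DNCB+HY209 array 3 it was 48 of 70 (47.7% of all genes) with a median of 0.064 (all genes -0.012).

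The same array mattered for DNCB against sham in the opposite sense. Without it the median difference was 0.47 in place of 0.37, and 55 of 70 members (78.6%), beside 34% of all genes, were higher without overlap in place of 26. By role, leaving it out moved complex III from 0.09 to -0.09 in DNCB+HY209 against DNCB and complex IV from 0.16 to 0.02, while the assembly factors went from 0.27 to 0.22. Without DNCB+HY209 array 1 the median between the treated groups was 0.22, with 69 of 70 above 0 (64.4% of all genes). Without sham array 2 the median for DNCB against sham was 0.24, with 59 of 70 above 0 (56% of all genes). Without sham array 1 it was 0.45. DNCB array 3 had the highest Gapdh ratio and, among DNCB arrays, the least muscle signal. With the Gapdh difference as a covariate, the median between the treated groups was 0.039 (all genes 0.008), with 40 of 70 above 0. With the muscle level as a covariate it was 0.109 (all genes 0.035), with 64 of 70 above 0. The Gapdh covariate left DNCB against sham at a median of 0.371.

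Other mitochondrial genes had differences of similar size. Of 15 measured genes of ATP synthase, which uses the proton gradient, 0 were called in any comparison and the median was 0.28 in DNCB and 0.40 in DNCB+HY209 against sham. The largest difference in DNCB was that of Atp5g1, a c-ring subunit, at 0.66. Of 25 measured assembly factors of complexes II to IV, 0 were called and the medians were 0.31 and 0.40. Of 76 mitochondrial ribosomal proteins, which translate the subunits encoded in mitochondrial DNA, 0 were called and the medians were 0.37 and 0.47, the same as for the respiratory chain genes to 2 decimals.

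Of 15 genes of the TCA cycle and pyruvate dehydrogenase, which supply NADH and succinate, 0 were called. All 15 were above 0 in each comparison, beside 63.2%, 57% (DNCB+HY209 against DNCB) and 65.7% of all genes. The medians were 0.43, 0.19 (DNCB+HY209 against DNCB) and 0.68. Dlat, a core subunit of pyruvate dehydrogenase, had the largest difference in DNCB, 1.06 (SE 0.38, adjusted p = 0.228). Of 13 regulators of mitochondrial biogenesis 0 were called, with medians of 0.24, 0.17 and 0.41. Their 13 of 13 differences were above 0 between DNCB+HY209 and DNCB, and 4 of them without overlap, beside 57% and 2.83% of all genes. Pprc1, a coactivator of the PGC-1 family, read 7.28 and 6.70 in sham, 7.52, 8.25 and 7.91 in DNCB and 7.80, 8.04 and 8.33 in DNCB+HY209, with a difference of 0.90 (SE 0.30, adjusted p = 0.198) in DNCB. Ppargc1a, which encodes PGC-1alpha, read near the array median, 3.56 to 4.40. No symbol of a mitochondrially encoded gene was listed, so the chain's own mitochondrial subunits were not analysed here.

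**Figure D5:**
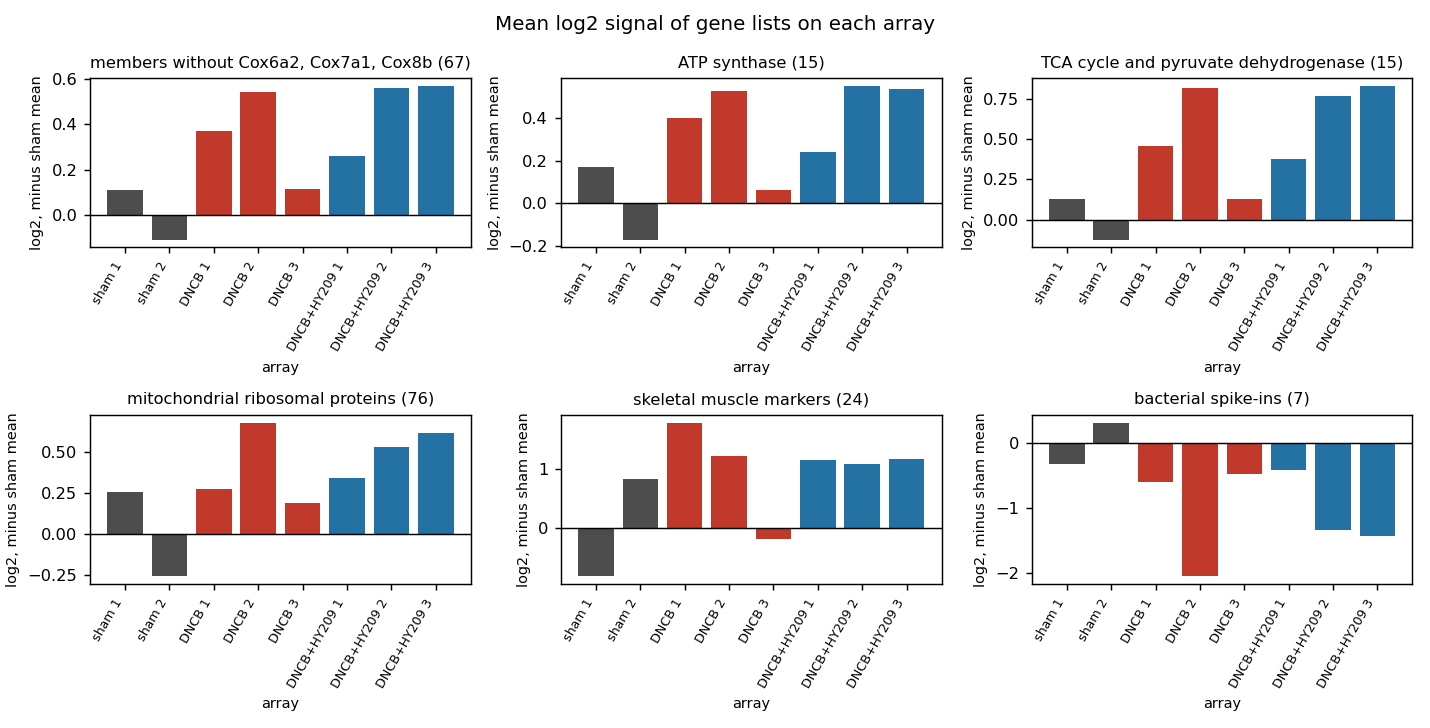
Mean log2 signal of 6 gene lists on each array, minus the mean of the 2 sham arrays (bars start at 0, and each panel has its own scale). The members without the muscle forms, ATP synthase, TCA cycle and ribosomal panels have DNCB array 2 and DNCB+HY209 arrays 2 and 3 as their 3 highest arrays, and these 3 arrays are the lowest in the spike-in panel.

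The plot of list means by array sets these lists beside the spike-in level. Without the muscle forms, the members' mean was 8.59 and 8.37 in sham, 8.85, 9.02 and 8.59 in DNCB and 8.74, 9.04 and 9.05 in DNCB+HY209. DNCB array 3 was level with sham array 1, and every other array with DNCB was above both sham arrays.

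Levels of the marker lists of other cell types are given beside these values, and their part in them was not tested. Keratinocyte genes had a median difference of 0.71 in DNCB against sham (6 of 6 above 0, 0 called) and 0.52 in DNCB+HY209 against sham. Their summed level (mean log2) ran from 10.22 to 11.18 in sham, from 10.81 to 12.14 in DNCB and from 10.31 to 12.35 in DNCB+HY209. Leukocyte genes had a median of 0.84 in DNCB (1 of 6, Ptprc, rose), with levels of 5.09 to 5.42 in sham, 5.79 to 6.52 in DNCB and 5.62 to 6.18 in DNCB+HY209, and Itgam and Cd3g did not pass the filter.

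Adipocyte genes had medians of -1.19 in DNCB and -1.64 in DNCB+HY209 against sham (0 of 7 called), with levels of 8.28 to 8.70 in sham, 6.84 to 8.21 in DNCB and 7.06 to 7.70 in DNCB+HY209. Hair follicle genes had medians of -1.97 and -1.21 (0 of 14 called), with levels of 6.75 to 9.64 in sham, 5.31 to 7.50 in DNCB and 6.22 to 8.64 in DNCB+HY209. Fibroblast genes differed most between the treated groups, with a median of -1.02 (6 of 6 below 0, 0 called) and levels of 8.86 to 9.69 in sham, 8.85 to 10.01 in DNCB and 8.37 to 8.58 in DNCB+HY209. Of the brown adipocyte genes 4 passed the filter without Ucp1, and 0 were called, with medians of 0.11, 0.13 and 0.35.

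Agreement between probe sets bears on how far a single probe set can stand for a gene. Of the 152 probe sets of the members 130 passed the filter, and 40 members had more than 1. For 38 of these 40 all probe sets had the same sign in DNCB against sham, and the exceptions were Ndufb2 (-0.40 to 0.33) and Uqcrq. The numbers were 32 of 40 in DNCB+HY209 against DNCB and 37 of 40 in DNCB+HY209 against sham. Probe sets whose names end in x_at or s_at can bind related transcripts, and of the genes described above those of Ndufv1, Ndufs8, Ndufa12, Ndufc2, Ndufaf7, Uqcrq, Uqcrh, Cox5b and Cox7c are of these kinds. The 6 probe sets of Ndufs8 gave 0.08 to 0.72 in DNCB against sham.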

How the data were processed

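Total RNA from frozen skin was amplified from the 3' end, labelled with biotin and hybridised to Affymetrix mouse arrays, per the labels' protocols. The table deposited by the authors held 1 log2 signal per probe set and array, for 45101 probe sets, with values from 1.59 to 14.5. The log2 scale was read from that range. Per the submitters' processing notes, MAS5 and Affymetrix Expression Console were used, with no version or order stated (normalization between arrays: not given in the sources used here). Detection calls were not analysed here. Of the probe sets 64 were controls, 34945 had a single gene symbol in the platform annotation, 932 had several and 9160 were not listed. Entrez identifiers matched RefSeq for 99.4% and 0 member symbols differed from RefSeq.

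Values were used as deposited. The filter kept 20644 single-symbol probe sets, and the highest mean gave 12420 genes. Groups were compared with limma 3.58.1 in R 4.3.3 (lmFit, and eBayes with an intensity trend, all 8 arrays in a single fit, two-sided, Benjamini-Hochberg adjustment, threshold 0.05), tested on simulated data. SE is the moderated standard error, and confidence intervals are at 95%. Pairs of arrays correlated at 0.965 to 0.987 inside a group and at 0.920 to 0.987 across groups. The number of arrays limits the precision. Signals of different genes are not on a common scale, and ranks by mean signal served only to choose probe sets and names.

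Genes named in full were any called member, the members with the largest and smallest DNCB difference and the highest signal in each role, the isoform sets, complex II and Cycs. Further genes are named where stated. The members, the gene lists and the tests were chosen with earlier results of these data known. Alternatives were quantile normalization, centring, other filters, the mean of probe sets, other variance priors, a fit to only the groups compared, a replicate block, muscle and spike-in covariates and each array left out. The Gapdh covariate and the counts without given arrays were added after the data were seen. Permutation tests used scipy 1.17.1 and figures matplotlib 3.10.9.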

Additional observations from a re-analysis of the deposited data

How the results depend on the processing

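No respiratory chain gene was called in any comparison under any of the 20 alternatives. The lowest adjusted p of a member was 0.0984 in DNCB against sham and 0.925 between the treated groups. In DNCB+HY209 against sham it was 0.0858 (Cox7a1) among the named members other than Cox7c. Cox7c passed the filter only through the groups where it was high, so its test is not used. The member median for DNCB against sham was 0.124 with the spike-in covariate, and for DNCB+HY209 against sham it was 0.277 with quantile normalization and 0.24 with the spike-in covariate. Leaving out an array in turn gave medians of 0.241 to 0.471, 0.008 to 0.218 and 0.361 to 0.612 for DNCB against sham, DNCB+HY209 against DNCB and DNCB+HY209 against sham. The replicate number as a block gave 0.412, 0.112 and 0.501, with 35, 0 and 12 genes called; deviations of arrays with the same number correlated with r of -0.603 to 0.276, so the numbers were not taken as pairing. Genes called in DNCB against sham numbered 19 with the muscle covariate, 16 with the spike-in covariate, 452 with the Gapdh covariate, and 15 to 352 when an array was left out. In DNCB+HY209 against sham they numbered 97 with quantile normalization, 24 with the mean of probe sets, 16 in only the groups compared, 8 with the muscle covariate, 10 with the spike-in covariate, and 9 to 287 when an array was left out. The cause was not tested. Between the treated groups 0 genes were called under each alternative.

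Single members changed sign as follows. For DNCB against sham, quantile normalization gave Cox7a2l -0.153, Cox8a -0.061, Ndufaf8 -0.034, Sdhb -0.027 and Uqcrh -0.025, the muscle covariate gave Cox4i1 -0.123 and Sdhc -0.039, and the spike-in covariate gave Cox4i1 -0.286, Cox7a2 -0.265, Cox7a2l -0.069, Cox8a -0.157, Sdha -0.13, Sdhd -0.103 and Uqcrh -0.059. Leaving out an array gave -0.089 to 0.441 for Cox4i1, -0.057 to 0.383 for Cox7a2, -0.022 to 0.321 for Cox8a, -0.093 to 0.548 for Sdhb, -0.005 to 0.324 for Uqcrh and -0.475 to 0.101 for Ndufa4l2. Between the treated groups, Cox8c was 0.088 with the mean of probe sets and Cox8b -0.012 with the Gapdh covariate, and leaving out an array gave -0.571 to 0.043 for Ndufa4l2, -0.127 to 0.726 for Cox8b, -0.18 to 0.007 for Cox8c and -0.075 to 0.051 for Ndufaf8. For DNCB+HY209 against sham, quantile normalization gave Cox7a2l -0.078, Cox8a -0.062 and Ndufaf8 -0.084, the muscle covariate gave Cox4i1 -0.016, and the spike-in covariate gave Cox4i1 -0.125, Cox7a2 -0.23, Cox8a -0.137, Ndufaf7 -0.191, Sdha -0.002 and Uqcrh -0.033. Leaving out an array gave -0.013 to 0.427 for Cox7a2. Over the named members, 22 of 697 values in DNCB against sham, 8 of 158 between the treated groups and 11 of 697 in DNCB+HY209 against sham had the other sign. Leaving out an array moved the difference by over 1.5 times, or turned it, for 27 of 35 named members in DNCB against sham, 8 of 8 between the treated groups and 21 of 35 in DNCB+HY209 against sham.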
